A study of Rattus norvegicus with 2 samples.

Results

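Myosins, integrins, laminins and focal adhesion genes were examined in the mast cell model RBL-2H3, which derives from a basophilic leukaemia of the rat. The study, by its title, addresses PM2.5 and mast cell activation through IgE. The genes were chosen by name, with earlier results of these data known. They are every symbol that matches the families Myo, Myh, Myl, Itga, Itgb, Lama, Lamb, Lamc, Fln and Tln. Vcl, Pxn, Zyx, Ptk2, Ptk2b, Ilk, Bcar1 and Cass4 were taken too. This gave 74 of 15409 symbols, with 103 of 20367 listed transcripts. The pattern also took 4 symbols that are no integrin chain, namely Itgb1bp1, Itgb1bp2, Itgb3bp and Itgbl1. Each group was 1 library of total RNA. The saline group was labelled normal saline, and the treated group was labelled PM2.5 (fine particulate matter) plus IgE and DNP-HSA, the antibody and antigen that crosslink the IgE receptor. Whether the saline cells also had IgE and antigen, and the dose unit and time, are not stated in the labels. Both groups are the same cell line, so a growing leukaemia line stands in for tissue mast cells.

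Integrins are paired alpha and beta chains that bind matrix proteins and cell surface ligands and pass force to the actin cytoskeleton. Talin binds the beta chain tail and switches the receptor on, filamin competes for the same tail, and vinculin, paxillin, zyxin and the kinases FAK and Pyk2 gather at the contact site. Myosin II, made of heavy chains with light chains, pulls on the actin filaments, while unconventional myosins move membranes and granules along them. Mast cells use these proteins to adhere to matrix, to spread after IgE receptor crosslinking and to bring granules to the membrane.

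The saline library held 7279671 reads and the treated library 3964955, so the saline library was 1.84 times as deep. The labelled cell type was checked on mast cell markers, of which 10 of 14 were measured and all 10 had reads in both libraries. Their summed normalised count was 29195 in saline and 27388 in the treated library, most of it Kit and Gata2. Single markers differed, with log2 folds of 1.74 for the protease Cpa3, 0.79 for the IgE receptor chain Ms4a2 and -1.07 for Hdc, which makes histamine. Of the markers of other cells, all 4 platelet markers were measured, with a summed level of 1367 in saline and 1629 in treated cells. Most of it was Pf4, at a log2 fold of 0.40. Ppbp (-0.48) and Gp1ba (-0.64) were lower, and Gp9 had 3 reads in saline and 0 in the treated library. For macrophages 3 of 5 were measured, with sums of 1273 and 510, most of it Csf1r, and Cd68 had 0 reads in the treated library. Fibroblast markers had sums of 2304 and 2677, most of it Thy1, and Dcn had 0 reads in the treated library. Endothelial markers had sums of 524 and 560, most of it Tek. The 3 measured muscle markers had sums of 12.1 and 16.5 and the 1 measured epithelial marker, Krt8, was at 9.54 and 19.8, and no lymphocyte marker was measured. The part of other cell types in the values below was not tested.

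Levels are normalised counts as the authors scaled them. A log2 fold is the treated over the saline value on the scale of the normalised count plus 1. The interval in brackets is the exact 95% interval of the ratio without the added 1, and it covers counting error only, since reads are not independent molecules. With 1 library per group there was no test and no replicate check, and a difference of 2-fold or more either way is a rule of size. Transcript lengths were not used, so levels were not compared between genes.

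Most of the genes had a lower level in the treated library. The median log2 fold of the 74 was -0.41, against -0.07 over all 15097 symbols that passed the filter of a normalised count of 1 in either library. Values below 0 were found for 55 of the 74, and for 54.3% of all symbols. By the rule of size 15 genes were lower and 7 higher, while over all symbols 19.1% were lower and 12.1% higher. These counts of members correspond to 20.3% and 9.46%, close to the background. Of the 15 lower genes 5 (Lama4, Lamb1, Myh3, Myo18b and Myo1h) had 2 or 3 reads in saline and 0 in the treated library, too few for a fold, and of the 7 higher genes 4 had fewer than 50 reads.

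Among the 53 genes with at least 50 reads over both libraries, 9 were lower (17.0%) and 3 higher (5.66%) by the rule of size, with a median of -0.44. Over the 10117 symbols with as many reads the background was 9.05% lower and 7.02% higher, and the median was -0.05. Values below 0 were found for 42 of these 53 genes and for 52.9% of the symbols. Among the 36 genes with at least 500 reads 3 were lower (8.33%) and 1 higher (2.78%) by the rule of size. Of the symbols with as many reads 5.52% were lower and 4.49% higher. Their median was -0.45 and 30 lay below 0, against a median of -0.07 and 55.1% below 0 over those symbols. The difference of these better covered genes from the background lay in many modest values on the low side. Their shares past 2-fold on the low side were above the background too, and rested on 9 and 3 genes. Those on the high side were below it, on 3 and 1 genes. The sum of the normalised counts of all 74 genes was 93417 in saline and 68175 in the treated library. This sum and the counts above include both Myh9 and Myh9l1, which may count reads of 1 gene. The size of the shift differed by role, as the plot of folds by role shows.

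**Figure D1:**
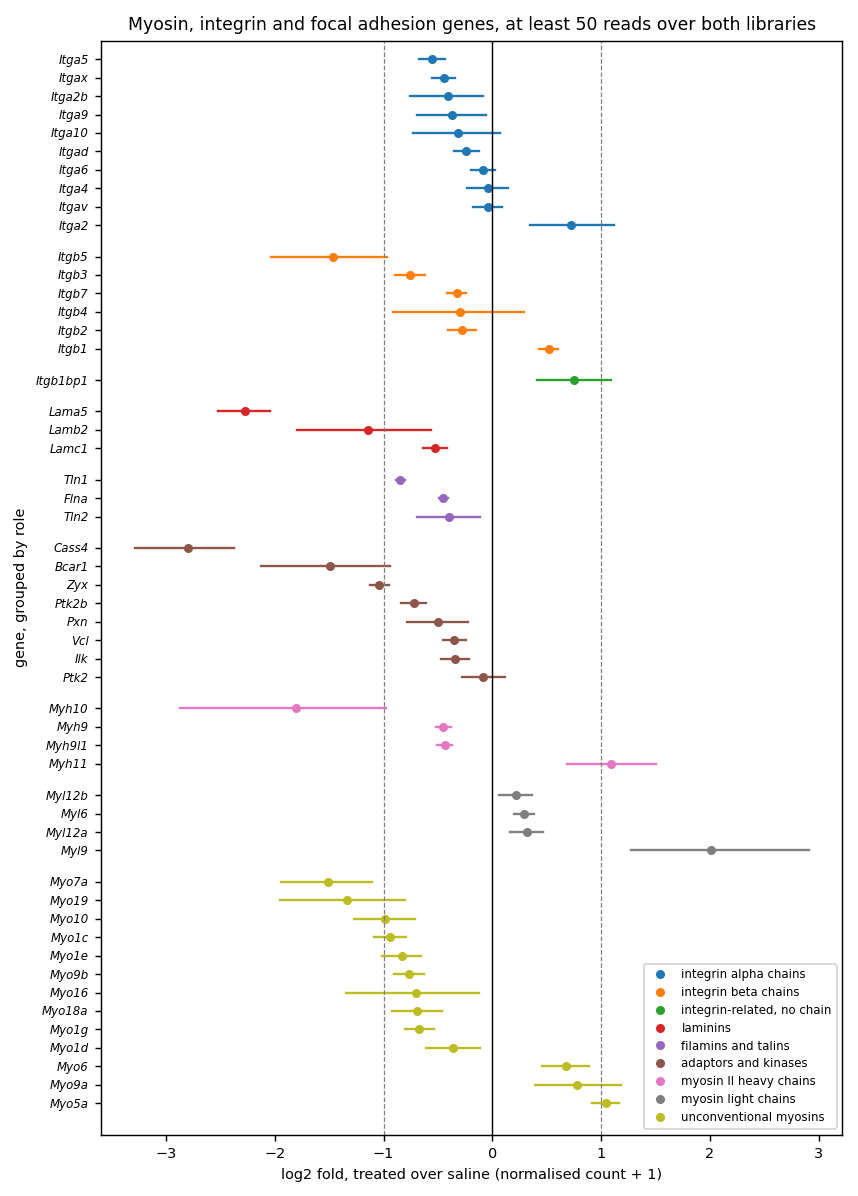
Log2 fold of the treated over the saline library (x axis) for 52 of the 53 genes with at least 50 reads over both libraries, grouped by role (y axis). Points are folds, bars are exact 95% counting intervals, the solid line is no difference and dashed lines mark 2-fold; focal adhesion adaptors, laminins, filamins and talins lie left of 0 and the myosin light chains right of it.

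Sequence upstream of the start was read for the genes found in a table of RefSeq promoters on GRCr8, which matched 57 of the 74 by symbol with 63 entries. The window was the 250 bases before the annotated start. The letters GGGCGG, on either strand, stood in 32 of 63 entries (50.8%) and in 30.5% of all 33469 promoters in the table. The median GC content was 60% for these genes and 51.2% for all promoters. TATAAA, on either strand, stood in 6 of 63 entries (9.52%) and in 12.9% of all. The CArG box, the element bound by serum response factor, stood in the windows of Lama2 and Myo1e and in 501 of the 33469 promoters. A match is a description of the letters only, and overlapping matches were each counted.

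Windows are printed for Lama5 and Cass4, the genes with the lowest values among those with at least 50 reads, for Myo5a, a gene past 2-fold on the high side, and for Myo1e, which holds a CArG box. Capitals mark GGGCGG on either strand in Lama5 and Myo5a and the CArG box in Myo1e; Cass4 holds none of the 3 motifs. The windows are, 5′ to 3′ on the gene's strand, chr3:187695975-187696224 (minus) for Lama5, chr3:181581652-181581901 (plus) for Cass4, chr8:84692699-84692948 (plus) for Myo5a and chr8:79768578-79768827 (plus) for Myo1e, all on GRCr8.
Lama5: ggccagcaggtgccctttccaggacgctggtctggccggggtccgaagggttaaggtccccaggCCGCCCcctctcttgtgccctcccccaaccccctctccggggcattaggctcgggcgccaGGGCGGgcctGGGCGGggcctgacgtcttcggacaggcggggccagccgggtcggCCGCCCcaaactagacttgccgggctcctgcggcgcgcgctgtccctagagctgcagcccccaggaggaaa
Cass4: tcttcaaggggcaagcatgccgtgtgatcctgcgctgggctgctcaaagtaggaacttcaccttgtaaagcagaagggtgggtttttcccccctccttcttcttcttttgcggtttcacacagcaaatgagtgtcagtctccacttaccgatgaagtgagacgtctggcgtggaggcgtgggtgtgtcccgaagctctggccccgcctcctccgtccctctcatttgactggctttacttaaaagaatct
Myo5a: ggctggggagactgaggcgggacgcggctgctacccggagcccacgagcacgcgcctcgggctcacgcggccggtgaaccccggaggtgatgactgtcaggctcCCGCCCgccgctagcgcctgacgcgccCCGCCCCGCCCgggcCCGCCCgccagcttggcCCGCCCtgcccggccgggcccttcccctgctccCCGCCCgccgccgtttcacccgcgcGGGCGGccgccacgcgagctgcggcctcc
Myo1e: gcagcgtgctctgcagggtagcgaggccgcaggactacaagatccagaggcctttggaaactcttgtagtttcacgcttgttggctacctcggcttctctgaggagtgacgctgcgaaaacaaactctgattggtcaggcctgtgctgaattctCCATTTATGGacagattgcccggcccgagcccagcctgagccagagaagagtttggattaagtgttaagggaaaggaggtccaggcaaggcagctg
The Lama5 window holds 4 matches of GGGCGG and the Myo5a window 7, so the motif stands before a gene that was lower and before one that was higher in the treated library. GC content was 72.8% for Lama5, 53.2% for Cass4, 80.8% for Myo5a and 54.4% for Myo1e. Of the 12 genes past 2-fold with at least 50 reads, 9 had a promoter entry. Of these, 0 held the CArG box, 0 held TATAAA and 6 held GGGCGG.

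Among integrin alpha chains, 14 were measured, 1 was past 2-fold and none was lower by that rule. Their median log2 fold was -0.28, and 11 lay below 0. Itga5 (ENSRNOG00000057451), the chain of the fibronectin receptor, had a normalised count of 1912 in saline and 1303 in the treated library. It was lower by a log2 fold of -0.55 (interval -0.67 to -0.44, 789 treated against 2205 saline reads). Itga6, a laminin receptor chain, was at 1687 and 1589 (log2 fold -0.09, interval -0.20 to 0.03). Itga4, which binds fibronectin and VCAM1, was at 578 and 560 (log2 fold -0.04, interval -0.24 to 0.15). For Itga4, Itga6 and Itgav (1189 and 1154, log2 fold -0.04) the interval held 0, so no difference was detectable between these libraries at this depth.

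Itga2, a collagen receptor chain, was the alpha chain with at least 50 reads on the high side. It had 108 and in treated cells 178, a log2 fold of 0.72 (interval 0.34 to 1.11, 108 treated against 124 saline reads). The 1 alpha chain past 2-fold was Itgae, which pairs with Itgb7 to bind E-cadherin on epithelium, at 5.2 in saline and 18.2 in treated cells (log2 fold 1.63, interval 0.24 to 3.52). It rested on 6 and 11 reads. The leukocyte chains Itgax and Itgad were at -0.45 (2210 in saline and 1620 in treated cells) and -0.24 (1816 and 1539). They belong to a family of similar genes, and reads between them could be split in ways not stated. Itga2b, the platelet fibrinogen receptor chain, was at 229 and 172 (log2 fold -0.41, interval -0.76 to -0.08). Itga9, which binds tenascin, was at -0.37 (interval -0.69 to -0.06). The collagen receptor chain Itga10 was at -0.32 with an interval that held 0 (-0.73 to 0.07), as did those of Itga3, Itga7 and Itga8, with 22 to 34 reads each.

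The 6 integrin beta chains did not share a direction. Itgb1 (ENSRNOG00000010966), the common partner of most matrix-binding alpha chains, was at 2225 in saline and 3181 in treated cells, a log2 fold of 0.52 (interval 0.43 to 0.60, 1926 against 2565 reads). It was the beta chain above 0, and the other 5 were below. Itgb3 (ENSRNOG00000048449), which forms the vitronectin receptor with Itgav, was at 1628 and 965 (log2 fold -0.75, interval -0.89 to -0.62). Itgb5, another partner of Itgav, was at 171 and 61.1, past 2-fold at -1.47 (interval -2.03 to -0.97, 37 against 197 reads). Its 1 listed transcript is classed by the authors as other Ensembl RNA and not as protein coding, so with protein coding transcripts only 0 of the beta chains were past 2-fold.

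The leukocyte beta chains differed less. Itgb7 was at 3277 in saline and 2608 in treated cells (log2 fold -0.33, interval -0.41 to -0.24), and Itgb2 was at 1463 and 1207 (log2 fold -0.28, interval -0.40 to -0.15). Itgb4, the hemidesmosome chain, was at 71.1 and 57.8 with an interval that held 0 (-0.91 to 0.29).

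Set side by side as receptors, the chains of the fibronectin receptor went opposite ways, with Itga5 at -0.55 and Itgb1 at 0.52. Of the 7 alpha chains set beside Itgb1 here, which are not a full list of its partners, 6 were below 0. Among these 6, the intervals of Itga4, Itga6, Itgav and Itga10 held 0. The other was the collagen receptor chain Itga2, at 0.72, while the collagen receptor chain Itga10 was at -0.32. Itga3 (-0.61), Itga7 (-0.73) and Itga8 (0.37), with few reads, were not set beside Itgb1. Of the leukocyte pairs, Itgad (-0.24) and Itgax (-0.45) stood beside Itgb2 at -0.28, and Itga4 (-0.04) beside Itgb7 at -0.33. Itgae and Itgb7 had the widest gap of the 15 pairs set side by side, at 1.63 and -0.33, with Itgae on 17 reads. Itgav, at -0.04, stood between partners at 0.52 (Itgb1), -0.75 (Itgb3) and -1.47 (Itgb5). For Itga2b and Itgb3 the values were -0.41 and -0.75.

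**Figure D2:**
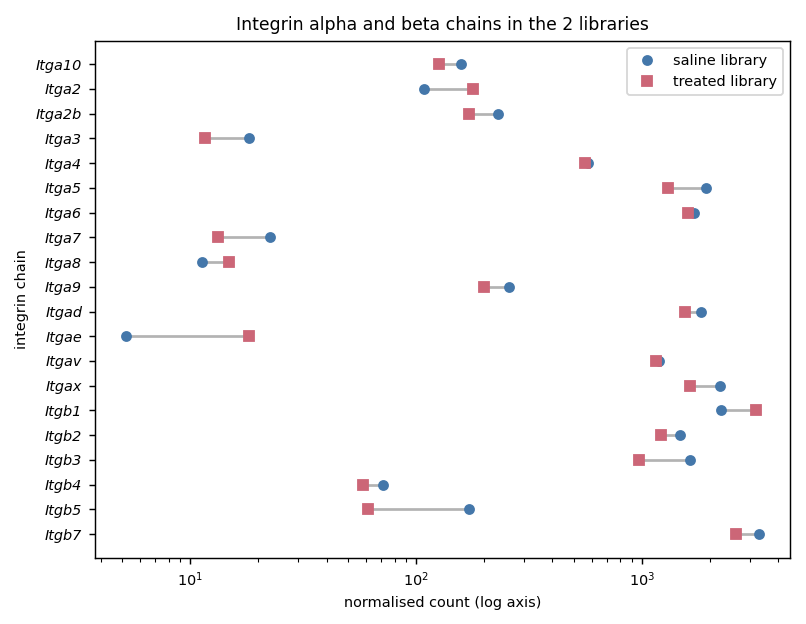
Normalised count (log x axis) of the 20 measured integrin chains (y axis) in the saline library (circles) and the treated library (squares), joined by a line for each chain; no transcript length enters, so chains are not compared with each other. The treated point of Itgb1 lies to the right (2225 in saline, 3181 treated), that of Itgb5 to the left (171 and 61.1), and those of Itga4, Itga6 and Itgav nearly coincide.

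Of the 4 symbols that are no integrin chain, Itgb1bp1, which binds the Itgb1 tail and keeps talin away, was the better covered. It had 134 in saline and 226 in treated cells, a log2 fold of 0.75 (interval 0.41 to 1.09). Itgb1bp2, Itgb3bp and Itgbl1 had 6 to 18 reads each and intervals that held 0.

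Laminins, the trimeric basement membrane ligands of integrins, held the second lowest single value among genes with at least 50 reads. Lama5 (ENSRNOG00000053691) was at 1280 in saline and 264 in treated cells, a log2 fold of -2.27 (interval -2.52 to -2.04, 160 against 1476 reads). Lamb2 was at 107 and 47.9 (log2 fold -1.14, interval -1.79 to -0.56, 29 against 123 reads). With its highest transcript alone Lamb2 was at -0.94, and with the saline library thinned to equal depth at -0.86, short of 2-fold in both. Lamc1 was at 2043 and 1419 (log2 fold -0.53, interval -0.64 to -0.41). These 3 chains can form 1 laminin trimer together, and all 3 were lower in the treated library. Lama2 (12.1 and 11.6) had an interval that held 0.

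Filamins and talins were all on the low side, with 5 of 5 below 0, a median of -0.48 and none past 2-fold. Tln1 (ENSRNOG00000016630), the talin of blood cells, was at 17458 in saline and 9703 in treated cells, a log2 fold of -0.85 (interval -0.89 to -0.81, 5875 against 20128 reads). Flna, the main actin crosslinker of this family, was at 14585 and 10666 (log2 fold -0.45, interval -0.49 to -0.41). Tln2 was at 308 and 233 (-0.40), and Flnc had 26 reads in all with an interval that held 0 (-2.00 to 0.80). The 4 rescalings of the libraries moved values by about 0.07 at most, too little to change the direction of any of the 5.

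Adaptors and kinases of focal adhesions were also on the low side in 8 of 8 cases, with a median of -0.61, and 3 were past 2-fold. The 4 rescalings moved values by about 0.07 at most. This could not change the direction, since the value nearest 0 was that of Ptk2, at -0.08. Cass4 (ENSRNOG00000021560), a Cas family scaffold, had the lowest value, with 523 in saline and 74.3 in treated cells, a log2 fold of -2.80 (interval -3.29 to -2.38, 45 against 603 reads). Bcar1, the founding Cas scaffold and a substrate of FAK and Src, was at 141 and 49.5 (log2 fold -1.49, interval -2.13 to -0.94). Zyx (ENSRNOG00000017354), which recruits actin-assembly factors to tense contacts, was at 4632 and 2251 (log2 fold -1.04, interval -1.13 to -0.95). Zyx was at -0.97, within 2-fold, when the median fold of all symbols was set to 0.

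The kinases differed among themselves. Ptk2b, which encodes Pyk2, was at 2330 in saline and 1411 in treated cells (log2 fold -0.72, interval -0.84 to -0.61). Ptk2, which encodes FAK, was at 556 and 525 with an interval that held 0 (log2 fold -0.08, -0.28 to 0.11). Ilk, the integrin-linked scaffold kinase, was at 1394 and 1098 (log2 fold -0.34), and Vcl, which links talin to actin, was at 2214 and 1738 (log2 fold -0.35). Pxn summed over its transcripts was at 337 and 238 (log2 fold -0.50, interval -0.79 to -0.22).

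Of the 8 myosin II heavy chains measured, Myh9 (ENSRNOG00000004860), the non-muscle heavy chain of blood cells, was at 5786 in saline and 4236 in treated cells, a log2 fold of -0.45 (interval -0.52 to -0.38). The entry Myh9l1 was at 6046 and 4456 (log2 fold -0.44). The RefSeq gene table on GRCr8 lists Myh9l1 as a synonym of Myh9, so both entries may count reads of 1 gene. Myh10, the other common non-muscle chain, was at 72.0 and 19.8 (log2 fold -1.81, interval -2.87 to -0.98, 12 against 83 reads). Myh11, the smooth muscle chain, was on the high side at 84.1 and 180.0 (log2 fold 1.09, interval 0.69 to 1.51). The cardiac and skeletal chains Myh3, Myh6, Myh7 and Myh7b had 2 to 42 reads each; Myh6 was at 1.43 (interval 0.38 to 2.70) and Myh7b at -1.56 (interval -3.19 to -0.39).

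Myosin light chains were the role in which all 5 measured genes lay above 0, with a median of 0.31. The lowest value was 0.21, so the 4 rescalings, which moved values by about 0.07 at most, could not change this. Myl6, the essential light chain of non-muscle myosin, was at 2109 in saline and 2583 in treated cells (log2 fold 0.29, interval 0.20 to 0.38). The regulatory light chains Myl12a and Myl12b were at 782 and 973 (log2 fold 0.31, interval 0.16 to 0.47) and at 827 and 958 (log2 fold 0.21, interval 0.06 to 0.36). They are close paralogues, so reads between them could be split in ways not stated. Myl9, a regulatory light chain typical of smooth muscle, was past 2-fold at 17.3 and 72.7 (log2 fold 2.01, interval 1.27 to 2.91, 44 against 20 reads). Myl6b had 3 reads in each library. The heavy chain Myh9 and its light chains thus had values on opposite sides of 0 in these libraries.

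The 17 unconventional myosins had a median of -0.71, with 13 below 0. With at least 50 reads 2 of 13 were lower by the rule of size and 1 was higher. Class I myosins with at least 50 reads, which tie membranes to actin, were lower without passing 2-fold. Myo1c was at 1525 in saline and 793 in treated cells (log2 fold -0.94, interval -1.09 to -0.80), Myo1e at 977 and 548 (log2 fold -0.83, interval -1.01 to -0.65), and Myo1g, found mainly in blood cells, at 1549 and 973 (log2 fold -0.67, interval -0.81 to -0.54). Myo1d was at -0.36 (interval -0.61 to -0.11). Myo1f had 7 reads in all and an interval that held 0 (-1.22 to 4.12).

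With at least 50 reads the genes past 2-fold on the low side were Myo7a, known from the hair cells of the inner ear, and Myo19, a mitochondrial motor. Myo7a was at 274 in saline and 95.8 in treated cells (log2 fold -1.51, interval -1.95 to -1.11), and Myo19 at 135 and 52.9 (log2 fold -1.34, interval -1.95 to -0.80). Myo10, the filopodial motor, was just within 2-fold at 439 and 221 (log2 fold -0.98, interval -1.27 to -0.71), and at -1.04 with the library totals made equal. Myo18a (-0.69) and Myo16 (-0.71) were lower too, and Myo7b had 6 reads in all.

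Of the unconventional myosins with at least 50 reads, Myo5a, Myo6 and Myo9a were above 0, and Myo5a was the 1 past 2-fold. Myo5a (ENSRNOG00000058866), which carries vesicles and granules on actin, was at 905 in saline and 1861 in treated cells, a log2 fold of 1.04 (interval 0.92 to 1.16, 1127 against 1043 reads). With the library totals made equal it was at 0.99. Both of its listed transcripts were at 1.04. Myo6, the motor that moves toward the opposite filament end, was at 343 and 548 (log2 fold 0.67, interval 0.46 to 0.89). Myo9a, a motor with a RhoGAP domain, was at 101 and 175 (log2 fold 0.78, interval 0.39 to 1.18), and its relative Myo9b at 1578 and 930 (log2 fold -0.76, interval -0.90 to -0.63).

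**Figure D3:**
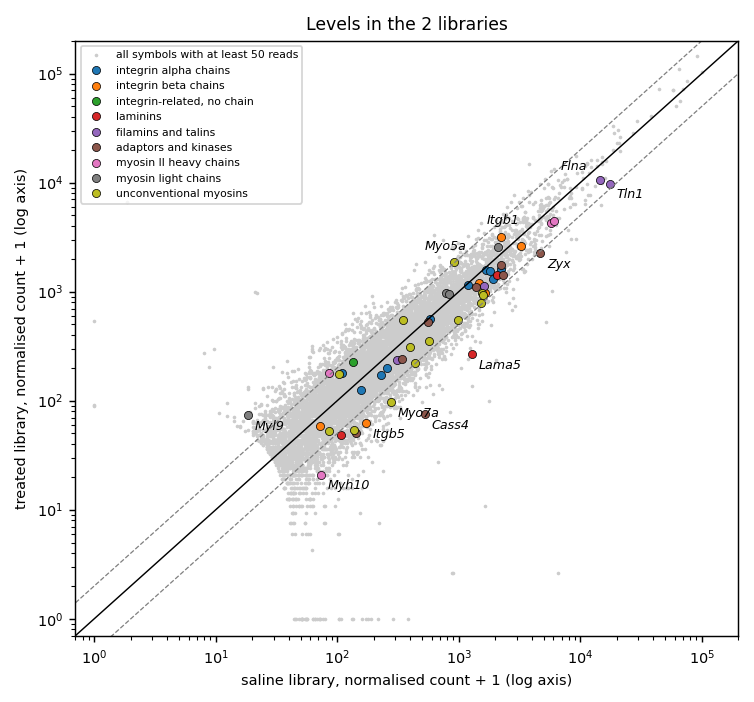
Normalised count plus 1 in the saline library (log x axis) against the treated library (log y axis) for symbols with at least 50 reads over both libraries (grey) and the 53 myosin, integrin and focal adhesion genes among them (coloured by role). The solid line is equality and the dashed lines are 2-fold; of the coloured points Lama5 and Cass4 lie furthest below the lower dashed line, and Myl9, Myh11 and Myo5a lie above the upper one.

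Several genes had transcripts that differed more than their sum. Of the 74 genes 21 had more than 1 listed transcript, and 9 had 2 or more transcripts with at least 50 reads. In 4 of these 9 (44.4%), among them Myo9b, Pxn and Itgb3, the log2 folds of such transcripts lay at least 1 apart. Over all 1353 symbols with as many such transcripts this held for 53.9%, so it was no more common here than elsewhere. The labels do not state how reads were assigned between transcripts of a gene.

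In Myo9b the saline reads lay mainly on ENSRNOT00000081321, with 1482 of 1819 reads in saline and 15 of 563 in the treated library. The treated reads lay mainly on ENSRNOT00000087576, with 408 reads against 0 in saline, at least 259-fold higher against a floor of 3 saline reads. ENSRNOT00000045099 had 109 against 0 reads (at least 69.2-fold higher) and ENSRNOT00000083651 had 0 against 279 reads (at least 48.8-fold lower). No transcript was the leading one in both libraries. With the highest transcript alone Myo9b was at -5.64, against -0.76 for the sum.

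Pxn showed the same pattern. ENSRNOT00000064115 had 370 reads in saline and 16 in the treated library (log2 fold -3.55, interval -4.42 to -2.88). ENSRNOT00000047466 had 0 and 120 reads and was at least 76.2-fold higher. In Itgb3 the transcript ENSRNOT00000073350 was at 1000.0 in saline and 314 in treated cells (log2 fold -1.67, interval -1.90 to -1.45), while ENSRNOT00000082780 was at 628 and 651 (log2 fold 0.05, interval -0.13 to 0.23).

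**Figure D4:**
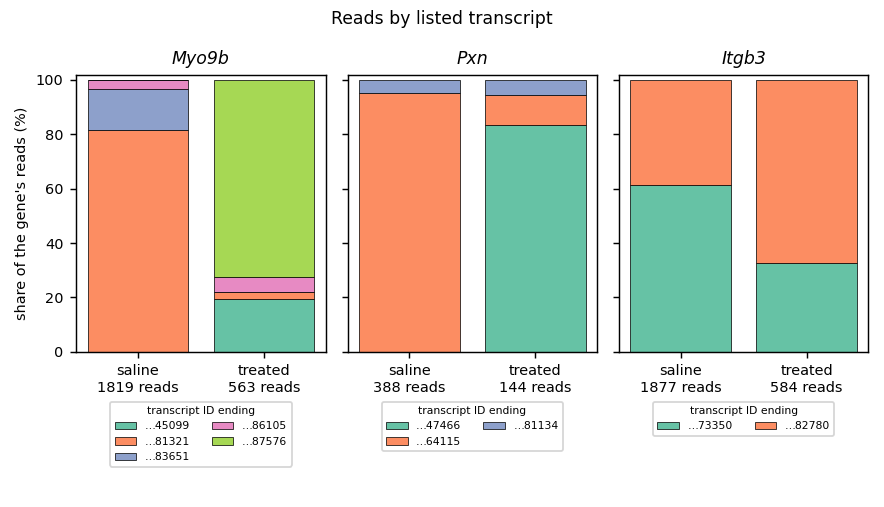
Share of each gene's reads on its listed transcripts (y axis, percent) in the saline and treated libraries for Myo9b, Pxn and Itgb3, with the gene's reads under each bar. The leading Myo9b transcript of the saline library holds 81.5% there and 2.66% of the treated reads, and the leading Pxn transcript 95.4% (exact 95% interval 92.8 to 97.2) and 11.1% (6.49 to 17.4).

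The authors' deposited table selects 57 of 20367 transcripts (0.28%) at an unadjusted p under 0.05, and 4 of the 103 transcripts studied here are among them. Among these are Lama5 (p = 0.0388), Cass4 (p = 0.0397) and Pxn ENSRNOT00000064115 (p = 0.0424), as listed in the authors' deposited table. All 4 were lower in the treated library, as were 39 of all 57 selected transcripts, while 18 were higher. The adjusted p in the authors' deposited table is 0.92 for each of them, and no transcript of that table has a lower one. The list of 57 is one of mRNA, while the 20367 transcripts include other RNA classes. The 0.28% is thus not a like background for the 103 transcripts, which are mostly protein coding. The Myo9b transcripts and Pxn ENSRNOT00000047466 were not selected. The labels do not state how a p was obtained from 1 library per group.

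Genes around these families were taken from 5 lists of 194 entries; 161 further genes were measured, with a median log2 fold of 0.03, 14 higher and 19 lower by the rule of size. Among regulators of myosin II, 4 of 32 were higher and 6 lower, with a median of -0.07. Of the 6 lower genes Rnd3 rested on few reads (0 against 4 reads). Rock1 and Rock2, kinases that raise light chain phosphorylation, were both higher. Rock2 was at 60.7 in saline and 282 in treated cells (log2 fold 2.20, interval 1.81 to 2.64), and Rock1 at 131 and 509 (log2 fold 1.95, interval 1.67 to 2.25). Ppp1cb, the catalytic subunit of myosin phosphatase, was at 1.34. Dapk1, a kinase that can phosphorylate light chains, was lower at 1847 and 489 (log2 fold -1.92, interval -2.10 to -1.74). The abundant Rhoa (0.39) and Tpm3 (-0.32) were within 2-fold.

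Among integrin activators and adhesion adaptors 3 of 43 genes were higher and 4 lower, with a median of -0.10. Fermt3, the kindlin of blood cells that acts with talin on beta chains, was at 2398 in saline and 1681 in treated cells (log2 fold -0.51, interval -0.62 to -0.41). Lims1, an adaptor that binds Ilk, was higher at 213 and 586 (log2 fold 1.45, 355 against 246 reads). Its relative Lims2 went the other way, at 126 and 56.2 (log2 fold -1.15, interval -1.75 to -0.62, 34 against 145 reads). Nedd9, the Cas family relative of Cass4 and Bcar1, was lower at -1.14. Actn4 was at 0.06. The higher genes Kank1 (4 against 0 reads) and Tns1 (6 against 2 reads) and the lower gene Rapgef3 (0 against 3 reads) rested on few reads.

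Among integrin ligands, matrix proteins and tetraspanins 3 of 26 genes were higher and 5 lower, with a median of 0.38. Of the 5 lower genes, Jam3, Nid2 and Sdc1 had 2 or 3 saline reads and 0 treated reads. Of the 3 higher genes, Fbn1 (2 against 0 reads) and Fn1 (15 against 13 reads) had intervals that held 0. Cd151, a tetraspanin that binds laminin receptors, had 0 treated against 122 saline reads and was at least 21.4-fold lower. Spp1, the integrin ligand osteopontin, was higher at 156 in saline and 464 in treated cells (log2 fold 1.57, 281 against 180 reads). Plaur, the urokinase receptor, was at -1.17, and the tetraspanins Cd63 (0.22) and Cd81 (0.23) were within 2-fold. Among actin assembly genes 2 of 47 were higher and 2 lower, with a median of 0.10. With the library totals made equal, 1 was higher, since Capza1 was then within 2-fold. The capping protein chain Capza2 was at 1.33 and Capza1 at 1.01, while Cttn was at -1.39 and the linker Plec was at 14786 in saline and 6276 in treated cells (log2 fold -1.24, interval -1.29 to -1.19). Actb was at -0.28 and Actg1 at 0.28.

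Among 16 further target genes of SRF, MRTF and YAP, factors that respond to actin assembly and tension, 2 were higher and 2 lower, with a median of 0.12. Of these 4, Ajuba (0 against 10 reads), Cyr61 (4 against 0 reads) and Cnn1 (14 against 11 reads) rested on few reads, and the fourth was Fhl2 at -1.05. With the median fold of all symbols set to 0, 1 gene of this list was lower, since Fhl2 was then within 2-fold. The shares past 2-fold in the 5 lists can be read against the 12.1% higher and 19.1% lower over all symbols. For symbols with at least 50 reads, the shares were 7.02% and 9.05%. The lists hold well covered genes as well as genes with few reads, so neither background matches them fully.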

How the data were processed

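Total RNA of RBL-2H3 cells was sequenced as strand-specific TruSeq libraries, 1 for each group, per the labels' protocols. Per the submitters' processing notes, tools included STAR 2.5, DESeq 1.22.1, Cuffnorm and FastQC, with no role stated. The authors deposited log2 values per transcript; the genome build, annotation and counting method were not given in the sources used here. Undoing the log and taking off 1 left whole multiples of 1 step for 100% of values (tolerance 1e-06 reads), so they were read as counts over size factors (1.15 saline, 0.605 treated). The authors' deposited p-values were used only as listed. The saline column carries its sample's title code, and the treated column was matched by the number in that sample's title. A further 4 columns of sample values were not used.

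Values were summed per symbol over all transcripts; none of the 74 symbols joined several gene identifiers, and 1276 transcripts without a symbol were left out. A gene was counted as higher or lower from a log2 fold of 1 upward in size, given a level of 1 or more in either library. For the intervals, the exact (Clopper-Pearson) limits of the share of reads from the treated library were converted to ratios. The floor for a library with 0 reads was 3 reads in that library. Named genes were, per role, the 5 highest means and the 5 largest differences with a value of at least 5. For each pathway list they were 3 genes by size of difference and 2 by mean level. Further members, and the list genes Ppp1cb, Nedd9, Capza1 and Fhl2, were added after their values were seen. So were Lims2, Jam3, Nid2, Sdc1, Fbn1, Fn1, Rnd3 and Rapgef3. The members and lists were chosen with earlier results of these data known. Of 194 list entries, 164 matched by symbol, 21 were unmatched, 7 are among the 74 genes and 2 were duplicates. GGGCGG and TATAAA were searched in addition to the planned CArG box. Protein sequences were not used here. Values of 2 members are in the counts, medians and sums but are not reported here singly. The steps were run on simulated counts with planted folds and counting error only. These counts hold no variation between replicate libraries, so they check the calculation and not the comparison of the groups. Software was SciPy 1.17.1, pandas 2.3.3 and NumPy 2.4.6 under Python 3.11.15, with figures from Matplotlib 3.10.9.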

Additional observations from a re-analysis of the deposited data

How the results depend on the processing

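With 1 library per group every value rests on single libraries. Over 15 alternative settings, 12 of them planned and 3 added after the data were examined, 85 of 95 summary values stayed close to those reported (counts within 1.5 times, medians within their binomial interval over genes), and no gene past 2-fold changed sign. The median of the 74 genes stayed between -0.46 and -0.34. A filter of 50 in either library gave 3 higher and 9 lower genes among those of the 74 that passed it. The added minimum of 50 reads gave the same counts, among 53 genes. The filter of 50 in either library gave 8 higher and 12 lower pathway genes among those that passed it. Over all symbols that passed it, 7.47% were higher and 8.59% lower. A pseudocount of 5 gave 6.78% and 10.9% over all symbols. Fewer low genes pass under each of these. No setting that scaled the libraries moved the median of all symbols by more than 0.07. Shifts of this size, filters and pseudocounts could not change the sign of a gene past 2-fold. Genes with near-identical proteins were not left out as planned, since no proteins were compared. Adding Myh9l1 to Myh9 left 7 higher and 15 lower genes. Depth limits the 21 genes with fewer than 50 reads. No paired analysis was possible because each group holds 1 library.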
